A study of Mus musculus with 44 samples.

Results

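The transcripts described here are the 200 microarray probes, of 25697, whose signal in white adipose tissue most exceeded that in liver and brain cortex. They were chosen from the authors' processed log2 values, averaged over all arrays of a tissue with both genotypes together, by the fat mean minus the larger of the liver and brain means, called the gap here. The study compared mice with a disrupted Surf1 gene (Surf1-/-, KO) with wild-type mice (Surf1+/+, WT), all female, of strain B6D2F1/J and 8 to 12 months old. There were 6 KO and 6 WT fat arrays, 8 KO and 8 WT liver arrays and 8 KO and 8 WT brain cortex arrays, 44 in all. The labels do not say how the allele was disrupted, which fat depot was taken or whether any animals were pooled. The number in each array's name was read as the number of its animal, which gives 23 animals.

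White adipose tissue stores triglyceride in adipocytes, releases fatty acids by lipolysis and secretes hormones, and it also holds vessels, immune cells and fibroblasts. Transcripts that are abundant in fat and scarce elsewhere usually belong to that storage and secretory programme. The protein made from Surf1 helps to assemble cytochrome c oxidase, the last enzyme complex of the mitochondrial respiratory chain. None of this background could be attached to single probes, because the deposited probe identifiers do not match the expression of known tissue marker genes in these data. The probes are therefore given by identifier only, with no gene name, role or sequence; an identifier is assumed to stand for 1 and the same probe throughout the series. For the same reason the probes paired with Surf1 check no genotype label. The tissue label of fat could likewise not be checked against adipocyte genes.

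The authors' values were quantile normalized within each tissue, so levels set side by side across tissues come from separately normalized arrays. On that scale the gap had a median of 2.61 log2 over the 200 probes, with quartiles of 2.31 and 3.29. It was above 3 for 77 probes, above 4 for 27, above 5 for 11 and above 6 for 5. The median level was 10.92 in fat, 7.68 in liver and 7.5 in brain, where the median over all 25697 probes was 7.08, 7.34 and 7.25. These levels chose the probes, so they are a description and support nothing further. In 196 of the 200, the lowest fat array lay above the highest liver or brain array. The exceptions, named because they fell short of this, were ILMN_1231420, ILMN_3162618, ILMN_2698115 and ILMN_1212619. Their lowest fat arrays were at 7.03, 8.96, 8.61 and 9.27, against 7.81, 9.89, 9.06 and 9.71 in their highest liver array. Bulk tissue cannot tell fewer cells of a type apart from less RNA per cell in any level or difference given here.

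The probe of largest gap was ILMN_2872965, with 14.69 ± 0.47 in fat (SD, n = 12) against 7.54 ± 0.34 in liver and 7.48 ± 0.16 in brain (SD, n = 16 each). Its non-normalized intensity averaged 28100 in fat, 156 in liver and 137 in brain. ILMN_1223963 followed at 14.25 ± 0.36 in fat (SD, n = 12), against 7.21 ± 0.08 in liver and 7.24 ± 0.06 in brain (SD, n = 16 each). It was above background on 12 of 12 fat, 1 of 16 liver and 7 of 16 brain arrays. ILMN_2604985 was the third, at 14.84 ± 0.32 in fat (SD, n = 12), against 8.16 ± 0.72 in liver and 7.15 ± 0.05 in brain (SD, n = 16 each). Its liver values had the largest spread among the 3 leading probes. The brightest probe of the set was ILMN_1233896, at 15.16 log2 in fat, 9.58 in liver and 9.09 in brain, with a mean intensity of 36900 in fat, and it was detected on every array of the series. The others among the 10 of largest gap were ILMN_2718144, ILMN_2696620, ILMN_1222104, ILMN_2722759, ILMN_3109269 and ILMN_1250538. Over these 10 the mean intensity ran from 6230 to 36900 in fat and from 91.7 to 616 in brain, and it was at least 127 in liver.

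At the limit of the set, ILMN_1257907, ILMN_1234552 and ILMN_1239947 were the last included, with gaps of 2.07, 2.06 and 2.06 log2. ILMN_2646938, ILMN_2914453 and ILMN_1244305 were the first left out, with 2.06, 2.05 and 2.05. The limit of 200 is therefore a round number on a continuous scale. Most of the probes were not silent outside fat. Detection in a tissue required a detection p below 0.05 on a minimum of 6 fat arrays, or of 8 liver or brain arrays, the size of 1 group. All 200 were detected in fat, 199 of them on every fat array. In liver 67.5% were detected (against 43.3% of all probes), which left 65 that were not, and in brain 154 were (77%, against 49.2%). Together 126 were detected in both other tissues, 9 in liver only, 28 in brain only and 37 in neither. Since 163 had signal elsewhere, the probes are called fat-high here rather than fat-restricted. The next highest tissue was liver for 137 and brain for 63.

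The 37 probes without detection in liver and brain were dimmer in fat, with a median of 10.05 on the authors' log2 scale against 11.40 for the 126 detected in both. Of these, 9 were detected on 0 of 16 liver and 0 of 16 brain arrays. ILMN_2599348 and ILMN_2695306 were among the 9, with mean intensities of 3640 and 2200 in fat. In liver they read 123 and 130, and in brain 86.7 and 93.9, while the median over all probes was 145 in liver and 108 in brain.

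The tests below used the non-normalized intensities after background correction and quantile normalization within tissue, and these values are called normalized log2. The fat arrays were alike in the share of all probes detected, with 46.4% to 51.1% in KO and 47.8% to 50.9% in WT. It was 31.3% to 46.7% over the liver arrays and 42.8% to 52.9% over the brain arrays. The median non-normalized intensity of the 200 probes varied more, from 1590 to 2600 over KO fat arrays and from 1490 to 2850 over WT. Its median was 1800 in KO and 2260 in WT. In liver 31.3% to 40.8% of probes were detected in animals numbered above 500, against 43.1% to 46.7% in those below 300. In brain the ranges overlapped in this share. Probe levels differed between the ranges in both tissues, as given below. Both genotypes were in each range, while all 12 fat arrays came from animals below 300. Within fat, WT arrays fell into separate places. The first principal component of the 200 probes held 42.7% of their variance, with KO arrays at scores of 0.8 to 7.3. Fat_WT_138, Fat_WT_139, Fat_WT_148 and Fat_WT_165 scored -5.9, -6.6, -4.6 and -4.1, whereas Fat_WT_135 and Fat_WT_136 scored 0.3 and 3.0, within or beside the KO arrays. The division was not particular to the set. Over all probes the component held 30.6% of the variance, with scores of 5.4 to 24.2 in KO, 7.5 and 16.1 in Fat_WT_135 and Fat_WT_136, and -33.6 to -21.9 in the other WT arrays. Results that rest on single arrays are given with and without them.

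Averaged over the set, KO and WT fat lay close together. The mean of the 200 probes on an array was 10.95 to 11.20 normalized log2 in KO, with a mean of 11.06 ± 0.11 (SD, n = 6), and 10.96 to 11.22 in WT, with 11.15 ± 0.10 (SD, n = 6). The ranges overlapped, and the medians were 11 in KO and 11.2 in WT. The low end of the WT range was Fat_WT_165 alone, with the next WT array at 11.13. Fat_Surf1_KO_164 and Fat_Surf1_KO_231 lay among the higher WT arrays, at 11.19 and 11.20. KO minus WT was below 0 for 119 of the 200 probes (59.5%) and above 0 for 81, against 47.3% below 0 among all 12468 probes tested. The median was -0.05 log2 in the set and 0.02 over all probes. The differences were more spread in the set, with quartiles of -0.31 and 0.19 against -0.14 and 0.15 over all probes. The standard error was also larger, with a median of 0.18 against 0.16.

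No fat-high probe passed the test in fat. With limma, 0 of 200 had an adjusted p under 0.05, against 5 of the 12468 probes tested (0.0401%), and the smallest adjusted p in the set was 0.0721. Of the 200, 57 had an unadjusted p under 0.05 (28.5%, against 14.6% of all probes). Of these, 23 were higher in KO (11.5%, against 6.71%) and 34 lower (17%, against 7.89%). In 2 probes every KO array lay above every WT array (1%, against 0.393% of all probes), and in 3 every KO array lay below (1.5%, against 0.377%). The difference exceeded 1 log2 in either direction for 4 probes (2%, against 1.08%). The share at an unadjusted p under 0.05 was thus above the background in the set, while single probes could not be called. The 57 are not separate results, since the probes share 12 arrays and 1 component held 42.7% of their variance. The background was not matched for level or spread. Mean intensity in fat had a median of 2130 in the set and 122 over all 25697 probes. The SD within genotype had a median of 0.35, against 0.27 over the tested probes. The cause of the higher share was not tested. Within the set, 19 of the 66 dimmest, 18 of the 67 in the middle and 20 of the 67 brightest had an unadjusted p under 0.05. Even the dimmest of these had fat means of at least 9.14 normalized log2. The split therefore cannot speak to the difference in level between the set and all probes.

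For the 10 probes of largest gap, KO minus WT ran from -0.47 to 0.72 log2, with limma adjusted p from 0.169 to 0.912, and 3 of the 10 had an unadjusted p under 0.05, against 14.6% of all probes. ILMN_2872965 was at 13.80, 14.49 and 15 normalized log2 in KO fat (lowest, median and highest), against 14.36, 15.04 and 15.22 in WT fat. The KO arrays reached lower, with 2 of 6 below every WT array, and KO minus WT was -0.47 (SE 0.21). ILMN_1223963 was nearly constant in KO at 14.32, 14.38 and 14.48, against 13.22, 14.18 and 14.63 in WT, so the KO values lay inside the WT range. ILMN_1250538 was at 12.42, 12.76 and 13.29 in KO and at 11.31, 12.03 and 13.10 in WT. Its difference of 0.72 (SE 0.25) had a limma adjusted p of 0.209.

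Among probes with higher means in KO fat, ILMN_2767113 had the smallest p. Its KO arrays lay at 10.52, 10.65 and 10.76 normalized log2 (lowest, median and highest), and its WT arrays at 9.06, 9.48 and 10.41. All 6 KO arrays exceeded every WT array, and the KO arrays were the tighter group, with an SD of 0.10 against 0.59 in WT (n = 6 each). KO minus WT was 0.99 (SE 0.21), 1.99-fold, with a limma adjusted p of 0.0721. The WT arrays nearest to KO were Fat_WT_135 at 10.35 and Fat_WT_136 at 10.41, while the other WT arrays lay at 9.06 to 9.60. ILMN_2896955 also had 6 of 6 KO arrays above WT, at 11.50, 11.83 and 12.13 in KO against 9.81, 10.94 and 11.43 in WT. It differed by 0.97 (SE 0.23, limma adjusted p = 0.0826), and it was detected on 16 of 16 brain arrays and on 0 of 16 liver arrays.

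Other probes with higher means in KO overlapped between genotypes. ILMN_1257801 had the largest positive difference of the set, 1.08 (SE 0.27), or 2.11-fold. It stood at 11.84, 12.43 and 13.05 in KO against 10.43, 11.27 and 12.07 in WT, with 4 of 6 KO arrays above every WT array and a limma adjusted p of 0.0872. ILMN_2599348, detected in fat alone, stood at 11.62, 12.06 and 12.45 in KO against 10.73, 11.19 and 11.93 in WT. Its groups overlapped, with 3 of 6 KO arrays above WT, at a difference of 0.78 (SE 0.22, limma adjusted p = 0.125). The rest of the 8 probes of smallest p in this direction were ILMN_1244226, ILMN_2978838, ILMN_2604985 and ILMN_3162133. Their differences were 0.36, 0.44, 0.42 and 0.57, with 4, 5, 5 and 2 of 6 KO arrays above every WT array. ILMN_2604985, the third of the set by gap, is the brightest of these, at 14.79, 15.08 and 15.13 in KO against 14.30, 14.59 and 15 in WT.

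Among probes with lower means in KO fat, ILMN_2767191 had the smallest p. It lay at 8.74, 9.25 and 10.12 normalized log2 in KO (lowest, median and highest) and at 9.93, 10.43 and 11.17 in WT. The groups overlapped, with Fat_Surf1_KO_231 at 10.12 above Fat_WT_136 at 9.93. The remaining KO arrays, 5 of 6, were below every WT array. KO minus WT was -1.14 (SE 0.23), 2.21-fold lower, with a limma adjusted p of 0.0721. ILMN_2695306, one of the 9 probes never detected in liver or brain, separated the genotypes, at 10.39, 10.76 and 10.88 in KO against 10.96, 11.28 and 11.56 in WT. All 6 KO arrays lay below WT, at a difference of -0.58 (SE 0.12, limma adjusted p = 0.0721). Here the 2 groups had like spreads, 0.21 in KO and 0.20 in WT (SD, n = 6 each). ILMN_2603279 separated them as well, at 10.25, 10.58 and 10.82 in KO against 10.84, 11.02 and 11.28 in WT, with a difference of -0.48 (SE 0.12, limma adjusted p = 0.0887). ILMN_2665629 nearly did, with 5 of 6 KO arrays below WT and a difference of -0.61 (SE 0.13, limma adjusted p = 0.0737). The remaining probes of the 8 in this direction, ILMN_2617194, ILMN_2593241 and ILMN_1214050, differed by -0.67, -0.81 and -1.29, with limma adjusted p of 0.107, 0.115 and 0.123. In ILMN_1214050 the KO arrays were the wider group, at 7.06, 8.97 and 9.62 against 9.31, 10.16 and 10.33 in WT.

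ILMN_1231420 had the largest difference of the set and the largest spread. Its KO arrays Fat_Surf1_KO_164, Fat_Surf1_KO_175, Fat_Surf1_KO_231, Fat_Surf1_KO_237 and Fat_Surf1_KO_241 lay at 9.07, 8.87, 9.34, 8.86 and 9.26 normalized log2. Fat_Surf1_KO_232 lay at 4.85 and was not above background there, with an intensity of 117. The WT arrays fell into 2 levels, with Fat_WT_138, Fat_WT_139, Fat_WT_148 and Fat_WT_165 at 12.90, 13.11, 12.16 and 12.48. Fat_WT_135 and Fat_WT_136 lay at 9.57 and 9.51, just above the highest KO array. All 6 KO arrays were thus below every WT array, but the distance to these arrays was small. KO minus WT was -3.25 (SE 0.78), with a limma adjusted p of 0.0831, so the probe did not pass. Outside fat it was near background, detected on 3 of 16 liver and 8 of 16 brain arrays. Its intensities in fat ran from 117 to 815 in KO and from 811 to 9130 in WT, so on that unnormalized scale one WT array overlapped the KO arrays.

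Several other probes followed the same division of the WT arrays. ILMN_2665916 lay at 9.61, 9.77 and 9.93 in KO, within a narrow band (SD 0.12, n = 6), while WT spread over 9.75, 10.77 and 11.52 (SD 0.68, n = 6). Fat_WT_135 and Fat_WT_136, at 9.93 and 9.75, were inside the KO band, and Fat_WT_138 was the highest array. ILMN_1213917, with a fat level that ranks it among the brighter probes, was at 12.20, 13.02 and 13.14 in KO against 12.67, 14.07 and 14.36 in WT. Fat_WT_136 and Fat_WT_135 were again the lowest WT arrays, at 12.67 and 13.20. Their KO minus WT was -0.85 (SE 0.24, limma adjusted p = 0.127) and -0.94 (SE 0.27, limma adjusted p = 0.133). Over the set, 24 probes correlated above 0.7 and 26 below -0.7 with the first component across the 12 arrays. These arrays also built the component, so the counts only describe it.

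The fat-high probes varied more between animals of a genotype than all tested probes did, a background not matched for level. Their SD within genotype had a median of 0.35 log2 and quartiles of 0.26 and 0.47, against 0.27, 0.21 and 0.35 over all tested probes. Within KO the median SD was 0.31 and within WT 0.35, against 0.25 and 0.27 over all probes. The SD was larger in KO than in WT for 81 of the 200 (40.5%, against 45.8% of all probes). After ILMN_1231420, the most variable were ILMN_1223168, ILMN_2621319 and ILMN_1240979. ILMN_1223168 had 2 levels within KO. Fat_Surf1_KO_164, Fat_Surf1_KO_175 and Fat_Surf1_KO_241 lay at 11.43, 11.35 and 10.53, and Fat_Surf1_KO_231, Fat_Surf1_KO_232 and Fat_Surf1_KO_237 at 8.61, 8.03 and 8.44, against 9.70, 10.72 and 11.47 in WT (lowest, median and highest). ILMN_2621319 was low in Fat_Surf1_KO_175 and Fat_Surf1_KO_232, at 7.14 and 6.91, where the other KO arrays lay at 9.02 to 10.30 and WT at 8.85 to 10.09. ILMN_1240979 spread alike in both genotypes, with an SD of 1.02 in KO and 0.90 in WT (n = 6 each). For these probes the limma adjusted p of KO minus WT was 0.457, 0.572 and 0.799. Pairs of probes deviated together to different degrees, with a median correlation of 0.08 over 19900 pairs after removal of the genotype means, 70 pairs above 0.9 and 4 below -0.9. The closest pair, ILMN_2459858 and ILMN_2907788, had a correlation of 0.99 over the 12 arrays.

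The same probes were read in the other tissues where they were detected. In liver 0 of those tested passed with limma (0% of all 11117 probes), and the smallest adjusted p was 0.384. An unadjusted p under 0.05 was found for 10 (7.41%, against 6.04% of all probes), of which 4 were higher in KO (2.96%, against 3.67% of all probes) and 6 lower (4.44%, against 2.37%). In 0 probes did all KO arrays lie above all WT arrays (against 0.018% of all probes) and in 0 below them (against 0.018%), and 3 differed by over 1 log2 (2.22%, against 0.441%). The median KO minus WT was 0.05 in the set and 0.01 over all probes. ILMN_2702044 had the smallest p, at 8.27, 8.67 and 9.48 normalized log2 in KO liver against 8.92, 9.42 and 9.66 in WT liver, and KO minus WT was -0.59 (SE 0.18, limma adjusted p = 0.384). The value was -0.72 in animals numbered below 300 and -0.20 above 500. ILMN_2743945 came next at 4.68, 5.18 and 6.24 in KO liver against 4.72, 6.90 and 9.14 in WT liver, detected on 3 of 8 KO and 6 of 8 WT arrays. Its difference of -1.69 (SE 0.55, limma adjusted p = 0.458) was -2.31 below 300, with 6 animals per genotype, and 0.18 above 500, with 2 per genotype. In fat the genotypes overlapped in part for the same probe, at 12.31, 13.00 and 13.51 in KO against 12.15, 12.82 and 13.31 in WT.

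In brain 0 of 154 passed with limma (0% of all 12648 probes), with a smallest adjusted p of 0.999. An unadjusted p under 0.05 was found for 2 (1.3%, against 2.45% of all probes), of which 1 was higher in KO (0.649%, against 1.52%) and 1 lower (0.649%, against 0.933%), and 0 differed by over 1 log2 (against 0.0949%). ILMN_2735391 was the higher one, at 8.53, 8.91 and 9.52 in KO brain against 8.14, 8.54 and 9.08 in WT brain, and KO minus WT was 0.39 (SE 0.15, limma adjusted p = 0.999). The value was 0.30 below 300 and 0.44 above 500. ILMN_2745027 was the lower one, with -0.32 (SE 0.15, limma adjusted p = 0.999), made up of -0.62 below 300 and 0.07 above 500. In fat these probes differed by -0.09 and -0.02. The number range itself went with 58 of the probes tested in liver (43%, against 50.3% of all probes) and 83 of the 154 in brain (53.9%, against 52.1%) at a limma adjusted p under 0.05 with genotype in the fit.

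Whether the KO effect in fat differed from that in another tissue was tested as an interaction in 1 limma fit over the 44 arrays. Between fat and brain 1 of 154 fat-high probes passed (0.649%, against 0.172% of the 10473 probes tested). It was ILMN_1231420, with a KO minus WT of -3.25 in fat and -0.22 in brain, so the effects differed by -3.03 (SE 0.69, limma adjusted p = 0.0483). In brain it lay near background, at most 5.52 in KO and 6.11 in WT. The fit used 1 spread per probe over all 44 arrays, including the liver and brain arrays where this probe was near background. The SE of the difference was thus smaller than the SE of the fat effect in fat alone, where the probe did not pass. The call was lost in 8 of the 12 fits that left out 1 fat array, those without Fat_WT_138, Fat_WT_139, Fat_WT_148, Fat_WT_165, Fat_Surf1_KO_175, Fat_Surf1_KO_232, Fat_Surf1_KO_237 or Fat_Surf1_KO_241, in which 0 fat-high probes passed. An unadjusted p under 0.05 was found for 21 probes (13.6%, against 6.87%), 8 with the higher effect in fat (5.19%, against 3.26%) and 13 with the lower (8.44%, against 3.61%). The effects differed by over 1 log2 for 7 (4.55%, against 0.964%). The next by p were ILMN_1214050, ILMN_1257801 and ILMN_2665916, with differences of -1.31, 1.22 and -0.92 and limma adjusted p of 0.136, 0.180 and 0.218.

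Between fat and liver 0 of those tested passed with limma, against 54 of 10053 probes (0.537%), while with the animal number as a block 1 passed (against 0.776% of all probes). It was ILMN_2665916, with a difference of -1.04 (SE 0.25, limma adjusted p = 0.030). In the fit without the block, 24 had an unadjusted p under 0.05 (17.8%, against 8.54%), 8 with the higher effect in fat (5.93%, against 3.67%) and 16 with the lower (11.9%, against 4.87%). The effects differed by over 1 log2 for 9 (6.67%, against 1.53%). The KO effect was the lower one in fat for 88 probes (65.2%, against 47.7% of all probes), with a median difference of -0.14 against 0.01 over all probes. ILMN_2665916 was nearest to the threshold, with -0.85 in fat and 0.20 in liver, or -1.05 between them (SE 0.27, limma adjusted p = 0.0531). ILMN_2743945 followed with 0.22 in fat and -1.69 in liver (difference 1.91, SE 0.57, limma adjusted p = 0.121), then ILMN_1213917 with -0.94 and 0.31 (difference -1.24, SE 0.37, limma adjusted p = 0.121). ILMN_1214050 had -1.29 in fat and -0.13 in liver (difference -1.16, SE 0.35, limma adjusted p = 0.135). Counts in this comparison also moved with the processing, up to 14 probes with array weights. The share of all probes called in that fit was not counted.

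The absence of calls in fat ended when any of 3 single arrays was left out. Without Fat_WT_136, 21 of the 200 passed (10.5%, against 3.42% of the 12468 probes), 6 higher in KO (against 1.1% of all probes) and 15 lower (against 2.32%). Of these 21, 13 were among the probes described above by their p, spread or difference between tissues, led by ILMN_2767113 with a limma adjusted p of 0.00746. ILMN_2767191, ILMN_1213917 and ILMN_1231420 were among them, at adjusted p of 0.0102, 0.0103 and 0.0168. Without Fat_WT_135, 4 passed (2%, against 0.738%), 1 higher (against 0.265%) and 3 lower (against 0.473%), which were ILMN_2767113, ILMN_2665629, ILMN_2617194 and ILMN_1231420. Without Fat_Surf1_KO_231, only ILMN_2767191 passed (0.5%, against 0.0722%), among the lower ones (0.0561% of all probes were lower and 0.016% higher). Leaving out any of the other nine fat arrays gave 0. In 1 fit over all 44 arrays, where liver and brain lend their spread, 13 passed (6.5%, against 2.84%), 5 higher (against 0.842%) and 8 lower in KO (against 2%).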

How the data were processed

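RNA of each sample was read on an Illumina mouse expression beadchip after biotin labelling, per the labels' protocols. Per the file headers, the authors deposited non-normalized intensity values and a detection p-value for each probe. The score was high for bright probes (rank correlation with the signal at least 0.966), so it was read as 1 minus the p-value. The authors also deposited processed log2 values, and the submitters' processing notes name lumi, without a version. The sources do not say whether the transform was a plain log2. Sorted values differed by at most 0.0166 within a tissue, which shows quantile normalization by tissue. The arrays' number limits precision.

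Members were chosen on the deposited log2 values. Tests used R 4.3.3 and limma 3.58.1 (statmod 1.5.0 for the block): normexp background correction from the detection p, offset 16, quantile normalization within tissue, lmFit and eBayes with an intensity trend. Tests were two-sided, and p-values were adjusted by Benjamini-Hochberg over all detected probes at 0.05. Every detected probe was its own test, since identifiers do not name genes and symbols cannot be used to merge probes. The steps were tested on simulated data. Named probes are those of largest gap (10), beside the limit (3 each side), of smallest p in fat (8 each way, as none passed), of largest SD (4), of smallest interaction p (4 each) and of smallest p in liver and brain (2 each). The pair of highest correlation was added after its value was seen. The members, rule and tests were chosen with earlier results of these data known. No label says that same-group samples came from separate animals, so p-values measure the spread between these samples. Background, normalization, filter, trend, weights and single arrays were varied.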

Additional observations from a re-analysis of the deposited data

Results flagged for a closer look

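Over 88 groups of arrays (37 named fat-high probes and the mean over the 200, mostly in fat), 4 held an array set apart from the rest, where chance gives about 1 in 20 groups. ILMN_1231420 in KO fat had Fat_Surf1_KO_232 at 4.85 normalized log2, and the next KO array was at 8.86. ILMN_2604985 in KO fat had Fat_Surf1_KO_175 at 14.79, below the next at 15.08. ILMN_2978838 had the same array lowest, at 10.36 with the next at 10.89. The mean over the 200 probes in WT fat was lowest in Fat_WT_165, at 10.96 with the next at 11.13. The KO effect on ILMN_1231420 differed between fat and brain by -3.03 log2 in the interaction test, with the dependence on single arrays and the shared spread given above.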

How the results depend on the processing

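The number of fat-high probes called between KO and WT fat stayed at 0 under all settings but 1 fit over 44 arrays, which called 13, and single arrays left out, which gave 0 to 21. All fat probes called numbered 5, against 9 with detection on every array, 9 without the intensity trend, 354 in 1 fit over 44 arrays and 1 to 426 with single arrays left out. In liver the count of 0 became 6 with array weights and 2 in 1 fit over 44 arrays, and in brain it was 0 throughout. The count of 0 for the fat minus liver effect became 6 without background correction, 3 with offset 50, 7 on the authors' values, 1 with cyclic loess, 1 with quantile over 44 arrays, 1 without the filter, 14 with array weights, 2 in animals below 300 and 0 to 3 with single arrays left out. The count of 1 for the fat minus brain effect became 6 without background correction, 7 on the authors' values, 4 with array weights, 0 with detection on every array (where ILMN_1231420 was not tested), 0 without trend, 0 below 300 and 0 to 4 with single arrays left out. The cause was not tested. For the liver, brain and interaction counts, the share of all probes called was not counted under the changed settings. These counts therefore do not tell the set apart from the setting. For 22 named probes, 0 of 483 alternative values reversed and 28 passed the threshold. These probes were picked by their p, spread or difference between tissues in the same arrays, so the 0 does not test their direction. Other averages or arrays kept 143 to 199 of the 200 members.

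With the animal number as a replicate block, 1 fat-high probe was called for fat minus liver, ILMN_2665916 (against 0.776% of all probes). For fat minus brain 1 was called (against 0.22% of all probes). It was ILMN_1231420, with a difference of -3.01 (SE 0.67, limma adjusted p = 0.034). Same-numbered fat and liver arrays had a median correlation of deviations of 0.10 over 12 animals (6 above 0.1), and fat and brain 0.01 over 9 (2 above 0.1). The numbers were read as animals, which no label states, so both fits are given.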

Other observations

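In 4 probes set side by side in the fat and liver of the same animal numbers, the WT animals divided in 1 tissue or in both. The numbers that stood apart were not always the same. In liver, ILMN_2743945 lay at 8.21, 7.55, 8.59 and 9.14 normalized log2 in Liver_WT_138, Liver_WT_139, Liver_WT_148 and Liver_WT_165, and at 6.25 and 5.47 in Liver_WT_135 and Liver_WT_136. The KO livers with a fat array of the same number lay at 4.68 to 6.24. In fat this probe showed no such division, with 12.66, 12.34, 13.31 and 12.97 in Fat_WT_138, Fat_WT_139, Fat_WT_148 and Fat_WT_165 and 12.15 and 13.27 in Fat_WT_135 and Fat_WT_136. ILMN_1231420 had it the other way round. Its fat arrays divided between these numbers, while its liver values were 4.79 to 6.52 in Liver_WT_138, Liver_WT_139, Liver_WT_148 and Liver_WT_165 and 4.82 and 4.86 in Liver_WT_135 and Liver_WT_136. ILMN_2604985 lay at 14.32, 14.30 and 14.38 in Fat_WT_138, Fat_WT_139 and Fat_WT_165, its lowest fat arrays. In liver the same numbers gave 9.38, 9.43 and 8.55, the highest of the 16 livers. Fat_WT_148 did not go with them, at 14.95, where Fat_WT_135 and Fat_WT_136 lay at 14.79 and 15. Liver_WT_148 lay at 7.64, above Liver_WT_135 and Liver_WT_136 at 6.65 and 5.94 but below Liver_Surf1_KO_164 at 8.12. ILMN_2696620 divided in both tissues. It lay at 13.82, 13.83, 13.92 and 13.70 in Fat_WT_138, Fat_WT_139, Fat_WT_148 and Fat_WT_165 against 14.24 and 14.18 in Fat_WT_135 and Fat_WT_136. In liver it lay at 7.54, 7.22, 7.23 and 9.06 in Liver_WT_138, Liver_WT_139, Liver_WT_148 and Liver_WT_165 and at 6.25 and 6.06 in Liver_WT_135 and Liver_WT_136. The animals were singled out after their values were seen, and no test was made.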
